A study of Mus musculus with 4 samples.

Results

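Long noncoding RNA records were followed in RNA-seq libraries of BV-2, an immortalised mouse line that serves as a stand-in for microglia, the macrophages of the brain. Of the table's 32915 RefSeq transcript records, 4349 carry the noncoding prefix, and 120 were taken as long noncoding RNAs. They were selected by rule: a noncoding record with a mouse symbol (4233), a symbol without any coding record (3688), no symbol of a small nucleolar, nuclear, Y, 7S, ribosomal or micro-RNA (2619), none of Rmrp, Rpph1, Terc and Ptgs2os2 (2615), and a raw count of at least 10 in at least 2 of the 4 libraries. The 120 records stand for 120 genes. The count step used the values analysed below, so how abundant the chosen RNAs are is a description.

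The libraries were 2 controls and 2 of cells given lipopolysaccharide (LPS, a bacterial outer membrane component sensed by Toll-like receptor 4) at 10 ng/ml, all labelled with a time of 4 h. The labels name no genetic change and no agent other than LPS. Whether the libraries of a group are separate cultures is not stated, and the p-values then describe only how far these samples vary, possibly for technical reasons. Their growth text also speaks of shaking mixed glia, although each sample is labelled as the cell line. Of 10 microglia and macrophage markers, Csf1r, Tyrobp, Spi1, Adgre1 and Cd68 were well counted, whereas Itgam had no count, Trem2 had 1, and Aif1 (3, 7, 4 and 3 raw counts), Cx3cr1 (4, 2, 9 and 8) and Ptprc (0, 5, 5 and 1) were nearly uncounted. Markers of astrocytes (7), oligodendrocytes (6), neurons (5) and endothelial cells or fibroblasts (6) summed to at most 1.96 normalised counts per list in any library. Of these 24 genes 20 were listed at 0, 10 of them with a single record, among them Aqp4, Mog, Olig2, Cldn5 and Col1a1. The other 10, like Itgam, Trem2 and Ptprc, have 2 or more records, and such genes are seldom counted in the table, but Aif1 and Cx3cr1 have a single record. The macrophage markers summed to 2784 and 2509 normalised counts in the controls and 3267 and 3248 after LPS. Spi1, the macrophage transcription factor PU.1, was the 1 of 5 tested that was called higher (from 509 to 1125 normalised counts, adjusted p = 0.00391). Adgre1 went from 521 to 719 and was not called (adjusted p = 0.232). Csf1r, Cd68 and Tyrobp had lower means after LPS and were not called either. The part of such shifts in the results was not tested. In bulk RNA, fewer cells of a type and less RNA per cell cannot be told apart.

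Long noncoding RNAs are transcripts without a long open reading frame that are spliced and capped much like messenger RNAs. Some work as RNA: MALAT1 and NEAT1 reside in nuclear speckles and paraspeckles, XIST coats the inactive X chromosome, and KCNQ1OT1 silences an imprinted cluster. Others are mainly known for what their introns release, small nucleolar RNAs or microRNAs, after which the spliced host RNA is often degraded in the cytoplasm by nonsense-mediated decay. In macrophages, LPS acts through the transcription factors NF-kappa-B, AP-1 and the interferon regulatory factors, which also drive noncoding transcription units near inflammatory genes.

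RefSeq classed 99 of the 120 as lncRNA, 20 as transcribed pseudogenes and 1, Gm12238, as a small nucleolar RNA. GENCODE M21 had no gene of the symbol for 13 of them, and typed 2, Rnf227 and A630089N07Rik, as protein coding, so the label does not hold for these in both annotations. For 4 members the matched transcript was under the usual limit of 200 bases for the name. Among them were Bc1 and Gm12238, matched by RefSeq identifier, with 168 and 140 bases. By symbol, 76 had a catalogue name or a name outside the other classes, 14 were hosts of small nucleolar RNAs, 9 pseudogenes (symbols ending in -ps or in -ps with 1 to 4; Vmn2r-ps129 is among the 76), 5 opposite-strand RNAs and 4 microRNA hosts. The remaining 12 were named RNAs of nuclear bodies (2), X inactivation (3), an imprinted locus (1), immune cells (2) and growth or stress (4).

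The members were few-count RNAs. Their median mean normalised count was 17, against 66.6 over all 6981 records tested, where normalised means scaled to a common library size of 3119900. Of the 120, 85 averaged under 30 normalised counts and 11 averaged at least 100. They summed to 3876, 8551, 6461 and 6618 raw counts in control 1, control 2, LPS 1 and LPS 2, from libraries of 2778686 to 3368693 counts. In normalised counts the sums were 5452 and 7217 in the controls and 5973 and 6472 after LPS, so the LPS libraries lay between the controls. Of the counts left after the 5 most abundant records of the table, which took 53.4% to 67.5% of each library, the members held 0.430% and 0.60% in the controls and 0.454% and 0.498% after LPS.

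The count limit set much of the membership. Of 2495 candidates under it, 1783 had no count in any library, 525 had 1 to 9 counts in all, and the highest sum was 41. Just outside stood 12 records whose second-highest count was 9, such as Ftx, an activator of Xist, with 5, 11, 9 and 9 counts in the same order. Just inside stood 9 records with a second-highest count of 10, such as Tug1 with 1, 13, 9 and 10 and Chaserr with 9, 14, 6 and 10. Through the LPS libraries alone came 10 members, whose controls were both under 10, and through the control libraries alone came 2, Dnmt3aos and Hectd2os. For these 12 the rule itself asked for counts in that group to be the higher ones.

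How the table counts genes with several records also bears on who is present. Among coding genes with a single record, 41.0% reached the same count limit, but only 6.45% of those with 2 or more records did. Among candidate noncoding genes the shares were 5.6% and 1.36%. Just 3 members, Snhg16, Tug1 and Xist, have more than 1 record in the table, and the second record of Xist stood at 0. Meg3, an imprinted RNA with 3 records, was listed at 0 in each, and so was AW112010, an interferon-inducible RNA of macrophages with 1 record. Neither value is read as absence. How reads shared by overlapping records were treated is not given in the sources used here.

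After LPS, 3 members rose and none fell. All 3 carry catalogue names: 6530402F18Rik, A430093F15Rik and Gm14023. The other RNAs, including every nuclear body, X inactivation, imprinted and host RNA, did not pass the test, although for many of them the standard error (median 0.412 on the log2 scale) leaves room for changes that these libraries could not resolve. The tests were made by edgeR's quasi-likelihood method over all records, and a record was called at an adjusted p below 0.05.

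Of the 120 members, 116 entered the test; 5033406O09Rik, Chaserr, Pisd-ps2 and Tug1 had too few counts. The 3 higher calls were 2.59% of the 116, where 3.82% of all tested records were called higher, and the 0 lower calls stand beside 1.7% of all records called lower. At an unadjusted p below 0.05 stood 17 members (14.7%), as did 15.4% of all tested records. DESeq2 called 2 of the 116 members higher and 0 lower, and 75.4% of its calls over all records were higher. Both are among the 3 called by edgeR. All 3 called members are among those that entered through the LPS libraries alone, so nothing is read from their count. The median log2 fold change (LPS minus control) was 0.084 over the tested members and -0.012 over all tested records. Of the 116 members 68 were above 0, beside 3375 of all 6981 tested records. A change under 0.5 on the log2 scale was fitted for 80, and under 2-fold for 105.

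**Figure D1:**
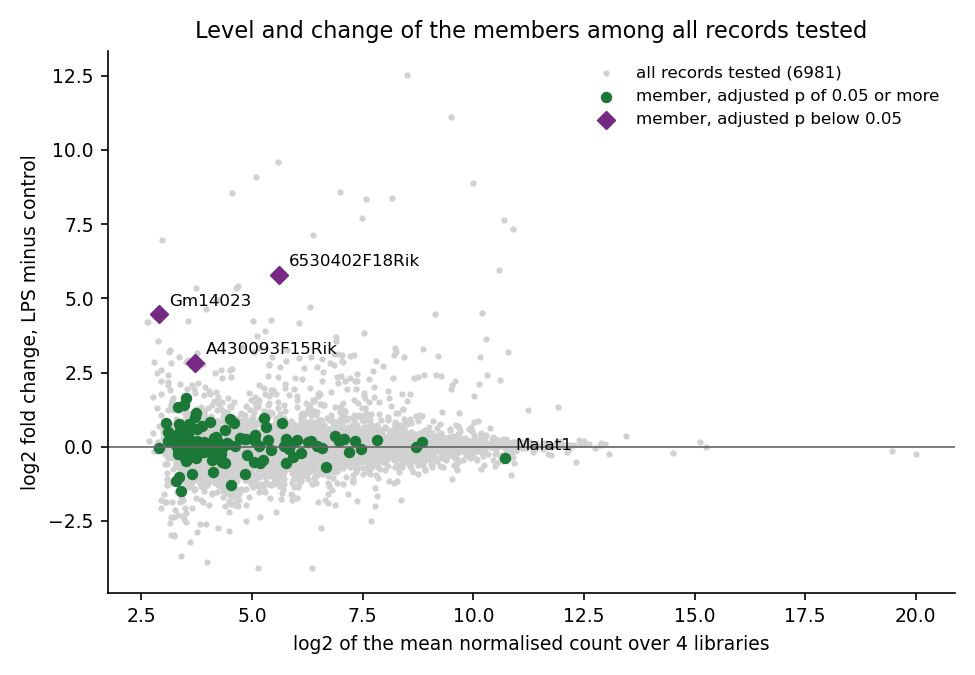
Each point is a record: the x axis is the log2 mean normalised count over the 4 libraries and the y axis the fitted log2 fold change, LPS minus control. Grey points are all 6981 records tested, green points members that were not called and purple diamonds the 3 called members, which stand at 5.80, 4.47 and 2.83 while the other members spread around 0 at mostly low counts.

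6530402F18Rik showed the largest change of the tested members. It is a lncRNA with 2 exons on the minus strand of chromosome 2 (GRCm38.p6, chr2:29245116-29252993), inside the span of Ntng2, a netrin-family cell surface gene, and on the same strand with overlapping exons. Its normalised counts were 2.81 and 0.844 in the controls and 102 and 89.0 after LPS, so the groups were far apart. The raw counts behind them were 2, 1, 110 and 91. The fitted log2 fold change was 5.80 (SE 0.465, adjusted p = 1.56e-05, n = 2 per group), and from 201 LPS against 3 control counts the rate ratio was 60.4 (exact 95% interval 20.4 to 295, counting error only). The 2 records of Ntng2 had 0 counts except for 1 count in LPS 2, and whether reads of shared exons went to either gene is not given. On the minus strand the annotated start of Ntng2 is at 29253005, close to that of 6530402F18Rik at 29252993. Transcription from the 2 starts cannot be told apart here.

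A430093F15Rik lies on the plus strand of chromosome 19 (chr19:10740947-10786043, 4 exons), between Cd5 and Cd6, which encode lymphocyte scavenger-type receptors. Its normalised counts were 2.81 and 3.38 in the controls and 24.0 and 22.5 after LPS. Replicates lay close together, at 3.09 ± 0.398 and 23.3 ± 1.09 (SD, n = 2). The log2 fold change was 2.83 (SE 0.495, adjusted p = 0.00515), a 7.13-fold difference. Cd5, 1945 bases away, had 4, 2, 6 and 4 raw counts, and both records of Cd6, 3298 bases away, had none.

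Gm14023 is transcribed from chromosome 2 (chr2:129297370-129307826, plus strand, 5 exons) against Il1a, the gene of the cytokine interleukin-1 alpha, with which its exons overlap on the opposite strand. Its normalised counts were 0 and 0.844 in the controls and 10.2 and 18.6 after LPS. These are 0, 1, 11 and 19 raw counts, the thinnest basis of the 3. The log2 fold change was 4.47 (SE 0.894, adjusted p = 0.0119), and 30 against 1 counts gave a rate ratio of 27.0 (exact 95% interval 4.49 to 1103). Il1a had 1, 2, 616 and 583 counts in the same libraries, a log2 fold change of 8.38. Il1b, the gene of interleukin-1 beta 56744 bases downstream, had one of 8.88. The start of Gm14023 lies 158 bases from the divergent Ckap2l, a mitotic spindle gene, whose log2 fold change of 0.89 did not pass (adjusted p = 0.0758). The libraries were directional, but the strand setting of the counting is not given in the sources used here, so reads of Gm14023 and of Il1a cannot be told apart with certainty. DESeq2 gave Gm14023 no adjusted p, and without LPS replicate 2 it was not tested.

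The promoters of the 3 called RNAs are shown because the cells were given a stimulus that acts through NF-kappa-B. They run from 250 bases before to 50 bases after the annotated start, 5′ to 3′ on the RNA's own strand, from RefSeq (GRCm38.p6). Capitals mark matches to a loose kappa-B pattern, GGG followed by any 5 bases and CC, on either strand and with overlapping matches merged. The coordinates are chr2:29252944-29253243 (minus strand), chr19:10740697-10740996 (plus) and chr2:129297120-129297419 (plus). The stretch of 6530402F18Rik also holds the annotated start of Ntng2.
6530402F18Rik: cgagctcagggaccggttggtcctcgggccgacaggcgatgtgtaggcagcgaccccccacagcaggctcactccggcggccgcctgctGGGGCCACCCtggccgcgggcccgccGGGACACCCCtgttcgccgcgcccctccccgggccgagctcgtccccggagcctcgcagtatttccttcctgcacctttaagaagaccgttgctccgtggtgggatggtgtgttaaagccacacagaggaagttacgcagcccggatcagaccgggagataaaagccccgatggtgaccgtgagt
A430093F15Rik: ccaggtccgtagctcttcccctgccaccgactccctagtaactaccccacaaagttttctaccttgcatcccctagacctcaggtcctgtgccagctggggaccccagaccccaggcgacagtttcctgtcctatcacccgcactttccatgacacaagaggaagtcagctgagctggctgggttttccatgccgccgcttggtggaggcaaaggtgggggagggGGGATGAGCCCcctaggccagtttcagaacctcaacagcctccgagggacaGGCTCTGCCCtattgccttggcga
Gm14023: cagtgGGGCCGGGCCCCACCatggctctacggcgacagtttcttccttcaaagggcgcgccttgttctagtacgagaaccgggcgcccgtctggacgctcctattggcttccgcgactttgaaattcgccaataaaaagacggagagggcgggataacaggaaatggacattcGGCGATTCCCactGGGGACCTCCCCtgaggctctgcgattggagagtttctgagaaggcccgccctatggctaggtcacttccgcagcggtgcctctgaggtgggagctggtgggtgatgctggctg
Matches began at -161 and -135 in 6530402F18Rik, at -25, -24 and 27 in A430093F15Rik, and at 7 positions between -245 and -62 in Gm14023, counted from the start as +1. The pattern is common: 50.8% of all 32851 promoters in the RefSeq table held it, as did 67.7% of those of tested genes and 54.8% of the 84 promoters matched to 83 members. The AP-1 pattern TGANTCA was in 7.81% of all promoters, 4.46% of those of tested genes and 4.76% of the members' promoters. For an interferon-type pattern (GAAA, any 2 bases, GAAA) the shares were 3.44%, 3.3% and 2.38%. Neither was found in the 3 shown, and a match or its absence describes these letters only.

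Beyond the 3 called RNAs, 9 members had the next smallest p-values. Rnf227, a RING finger gene and 1 of those that GENCODE types as coding, had 32.4 and 32.9 normalised counts in the controls and 13.9 and 12.7 after LPS, which gives -1.29 on the log2 scale (SE 0.345, adjusted p = 0.0566). Its groups did not overlap, and 6 of the alternative settings called it lower. AI839979, an intergenic RNA on chromosome 5, had 28.1 and 24.5 against 56.4 and 46.0 (0.97, adjusted p = 0.100). C920009B18Rik, which lies within the Raet1 and H60b ligand cluster on chromosome 10, had 38.0 and 36.3 against 64.7 and 65.5 (0.81, adjusted p = 0.122). The groups of both were apart, and neither passed; AI839979 was called higher in 5 and C920009B18Rik in 4 of the alternative settings.

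Mir22hg, the host of the microRNA miR-22, whose exons overlap those of Tlcd2 on the same strand, had 8.44 and 3.38 normalised counts in the controls and 20.3 and 13.7 with LPS (a log2 difference of 1.65, adjusted p = 0.130). 4833427F10Rik had 8.44 and 4.22 against 14.8 and 16.6 (1.40, adjusted p = 0.181). It lies 40997 bases from Ier3, an immediate early gene on the same strand that rose from 54.6 to 394 normalised counts (2.88, adjusted p = 2.14e-05). Dnmt3aos, transcribed against the DNA methyltransferase gene Dnmt3a, had 19.7 and 11.8 against 3.70 and 6.85 (-1.50, adjusted p = 0.181). The 3 came into the set through a single group, and none of them passed. Pisd-ps1, a pseudogene of a mitochondrial phospholipid enzyme, had 127 and 125 against 64.7 and 93.9 (-0.67, adjusted p = 0.195). Near-identical copies can share its reads. The values of 2610507I01Rik (-0.90, adjusted p = 0.202) and Zxda (1.13, adjusted p = 0.209) closed the 12.

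**Figure D2:**
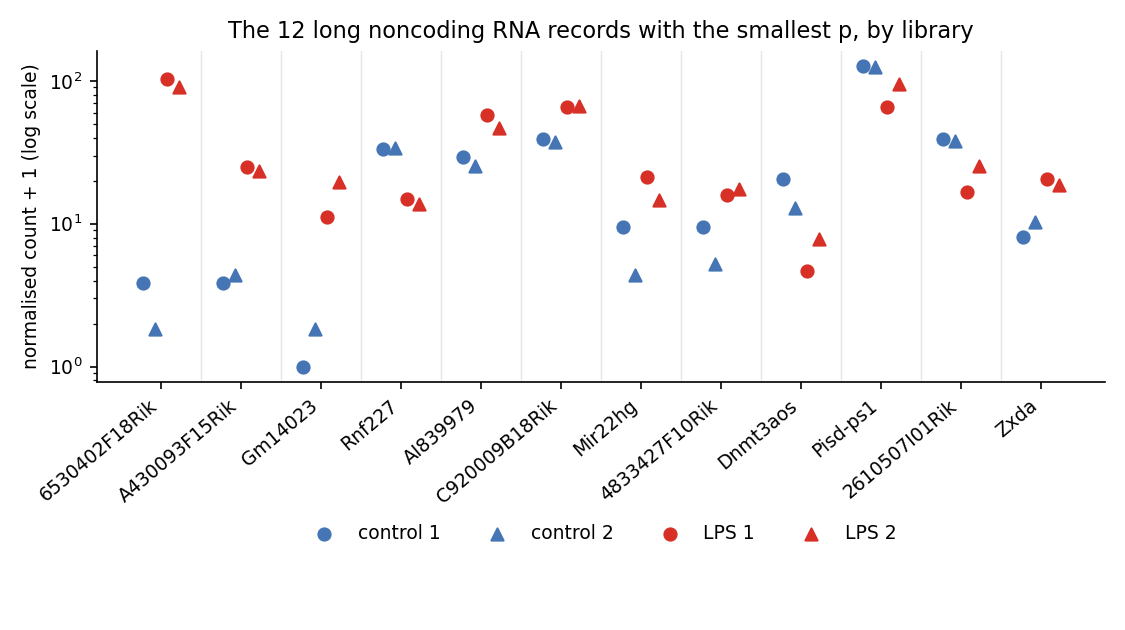
Normalised count plus 1, on a log scale, of the 12 members with the smallest p in each of the 4 libraries, with controls in blue and LPS in red, circles for replicate 1 and triangles for replicate 2. In each of them the groups do not overlap, but adjusted p-values were below 0.05 for the first 3 from the left alone, and the gap is widest for 6530402F18Rik.

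The groups did not overlap for more members than were called. In 26 of the 116 tested members (22.4%) both LPS libraries lay above both controls, beside 21.4% of all tested records. In 16 (13.8%) they lay below, beside 21.9% of all tested records. These shares are a description with 2 libraries a group.

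The nuclear body RNAs Malat1 and Neat1 were not called. Malat1, the most counted member, which is retained in nuclear speckles, is annotated at chr19:5795690-5802672 and alone made up 22.5% to 34% of the members' counts. Its normalised counts were 1349 and 2454 in the controls and 1344 and 1553 after LPS. Control 2 stood above the other 3 libraries, which were close together, and the difference of -0.40 on the log2 scale (SE 0.253, adjusted p = 0.561) did not pass. Without control replicate 1 it was -0.75 (adjusted p = 6.33e-10), and without control replicate 2 it was 0.10, so its direction depends on which control library is kept. Neat1, the scaffold of paraspeckles, had 52.0 and 92.8 in the controls and 49.0 and 81.2 after LPS (-0.19, SE 0.33, adjusted p = 0.90). Replicate 2 was higher than replicate 1 in both groups. Per kilobase of matched transcript, Malat1 averaged 272 normalised counts in controls and 207 after LPS, and Neat1 24.1 and 21.7. Of 13 paraspeckle protein genes in the table, 4 with 2 or more records (Nono among them) were listed at 0, 9 were tested and 0 were called by edgeR or DESeq2, with 0 at an unadjusted p below 0.05 (median log2 fold change -0.02), and Sfpq stood at -0.18.

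Xist, the RNA that coats the inactive X, had 70.3 and 224 normalised counts in the controls and 139 and 209 after LPS. The controls differed from each other by more than the groups did. Its log2 fold change was 0.20 (SE 0.402, adjusted p = 0.923), and leaving out control replicate 2 made it 1.30 (adjusted p = 1.18e-06), against -0.36 without control replicate 1. Jpx, a noncoding activator of Xist, had 12.7 and 14.3 against 10.2 and 12.7 (-0.26). Firre, an X-linked nuclear RNA, had 5.63 and 11 against 11.1 and 11.7 (0.36). All 3 X inactivation RNAs missed the test. Kcnq1ot1, the paternally expressed RNA of the Kcnq1 domain, had 114 and 247 against 138 and 208 (-0.09, SE 0.326, adjusted p = 0.961). It was called lower without control replicate 1 (-0.51, adjusted p = 0.0225) and higher without control replicate 2 (0.59, adjusted p = 0.0335), so no direction can be given. Spread over a long matched transcript, it averaged 1.94 normalised counts per kilobase in controls and 1.86 after LPS.

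**Figure D3:**
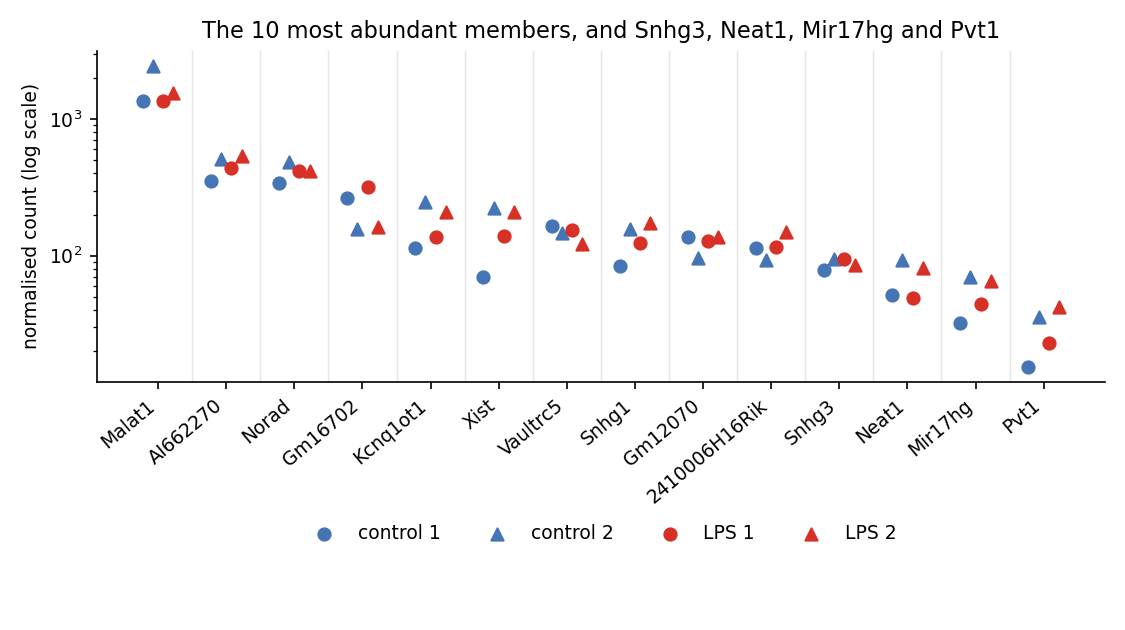
Normalised counts on a log scale, by library, of the 10 members with the highest mean and of Snhg3, Neat1, Mir17hg and Pvt1. Controls are blue, LPS libraries red, circles replicate 1 and triangles replicate 2; in many of them, such as Xist, Kcnq1ot1, Neat1, Mir17hg, Pvt1, Gm16702, AI662270 and Snhg1, the replicates differ more than the group means do.

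The gap between the control libraries moved with base composition. Over the 108 tested members with a GC value, the ratio of control 2 to control 1 had a Spearman rho of -0.353 with the GC content of the matched transcript, and over 6956 records the rho was -0.660; these are across genes of the same libraries, without p. In the 36 members with the lowest GC (34.3% to 44.7%) the median log2 ratio was 0.489, and control 1 was below control 2 in 24. In the 36 with the highest GC (50.9% to 69.2%) it was -0.183, with control 1 below in 11. The log2 fold change after LPS had a rho of -0.029 with GC over the members and -0.138 over the 6956 records. For the ratio of LPS 2 to LPS 1 the values were -0.094 and -0.266. Malat1 (42.5% GC), Xist (41.4%) and Kcnq1ot1 (40.3%) belong to the 36 of lowest GC, and the part of base composition in their control gap was not tested. With a GC and length trend removed from each library, Malat1 had -0.40 with an adjusted p of 0.0449. In that fit calls rose over all tested records as well as over the members, and both counts stand with the other settings below.

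**Figure D4:**
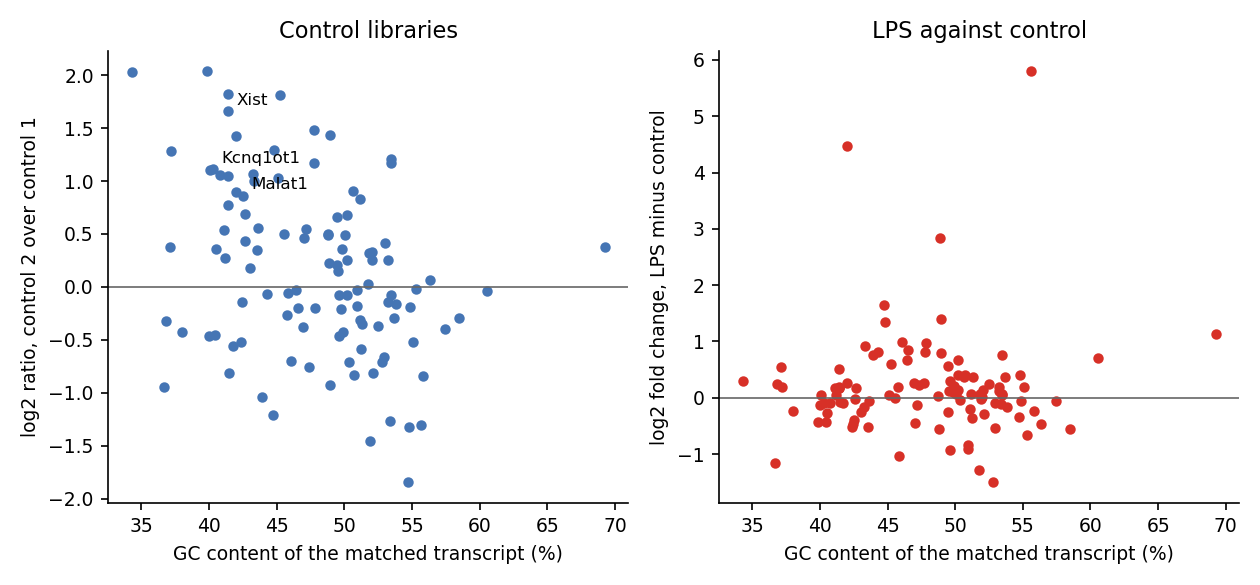
Each point is a tested member with a GC value (108). The left panel plots the log2 ratio of control 2 to control 1 and the right panel the log2 fold change, LPS minus control, both against the GC content of the matched transcript in percent; the left cloud falls from low to high GC (rho -0.353) and the right one does not (rho -0.029).

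The small nucleolar RNA hosts formed the largest named class. Their introns carry the guide RNAs that direct methylation and pseudouridylation of ribosomal RNA. All 14 were tested, 0 were called by edgeR or by DESeq2, and 1 (Dancr) had an unadjusted p below 0.05. In 12 the log2 fold change was above 0, beside 68 of the 116 tested members. The class had a median of 0.15 and a range from -0.56 to 0.99. Snhg1 had 84.4 and 158 normalised counts in the controls and 124 and 174 after LPS (0.27, SE 0.294). Snhg8 had 83 and 69.2 against 88.8 and 83.1 (0.19, SE 0.238). Snhg3 had 78.8 and 95.4 against 94.3 and 86.1 (0.04, SE 0.233). The groups overlapped in Snhg1 and Snhg3 and nearly met in Snhg8. Snhg1 ran from -0.08 without control replicate 1 to 0.81 without control replicate 2, where it was called higher (adjusted p = 0.00442). 2410006H16Rik, whose span holds Snord49a, Snord49b and Snord65, had 114 and 92.8 against 116 and 149 (0.36, SE 0.234, adjusted p = 0.562).

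Dancr, host of Snora26 and known as a differentiation-antagonising RNA, had the largest difference of the class, with 11.3 and 6.75 normalised counts against 17.6 and 16.6 (0.99, SE 0.447, adjusted p = 0.317). It entered through the LPS libraries alone. Snhg20 had the lowest, with 47.8 and 38.8 against 34.2 and 23.5 (-0.56, SE 0.315, adjusted p = 0.471). Snhg4, Snhg5, Snhg6, Snhg7, Snhg10, Snhg12, Snhg15 and Snhg16 lay between these values, and none of them was called. In the same fit 8 genes of proteins that assemble on such guides were tested and 0 were called by edgeR or DESeq2, also without adjustment, among them Fbl (0.01), Nop56 (0.17) and Nop58 (0.14). Of 10 tested nonsense-mediated decay factors and 12 tested genes of the nuclear exosome and its adaptors, 0 were called by either tool, and 1, Smg8, had an unadjusted p below 0.05; the median log2 fold changes were 0.12 and -0.02.

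MicroRNA hosts are shown with the mature microRNAs they carry, because the host is the transcript that these libraries count. In the RefSeq microRNA table, 8 members held 10 hairpins inside their span on the same strand, 2 of them the nucleolar RNA hosts Snhg10 (miR-3069) and Snhg20 (miR-6516). Mature forms are printed 5′ to 3′ with the seed (bases 2 to 8) in capitals. A330023F24Rik carries a pair with the same seed:
miR-29b-3p: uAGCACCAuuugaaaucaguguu
miR-29c-3p: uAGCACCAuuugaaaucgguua
Lncppara carries a pair with the let-7 seed:
let-7b-5p: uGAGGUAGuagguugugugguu
let-7c-5p: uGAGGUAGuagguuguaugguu
Mir22hg, F630028O10Rik, Dleu2 and Mir17hg each carry forms with seeds of their own:
miR-22-3p: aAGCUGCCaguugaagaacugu
miR-223-3p: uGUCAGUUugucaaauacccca
miR-16-5p: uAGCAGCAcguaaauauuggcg
miR-92a-3p: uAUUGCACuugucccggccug
Hairpins outside the annotated span of a member were not counted, so Mir17hg is shown with only miR-92a of its cluster. These are sequences of the annotation, and mature microRNAs were not measured.

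The host of the miR-29 pair, A330023F24Rik (chr1:195017399-195037908), had 2.81 and 7.60 normalised counts in the controls and 13.9 and 15.6 with LPS (a log2 difference of 1.35, SE 0.523, adjusted p = 0.229). Mir22hg had a log2 difference of 1.65. The groups did not overlap in either host, both entered through the LPS libraries alone, and neither passed. Mir17hg, the host of the growth-promoting miR-17 to miR-92 cluster, had 32.4 and 70.1 against 44.4 and 65.5 (0.04, and from -0.35 to 0.75 with a control library left out). Dleu2, a host of the tumour-suppressing miR-16, had 4.22 and 16 against 18.5 and 15.6 (0.60, SE 0.505), which became 0.10 without control replicate 1 and 1.98 without control replicate 2, uncalled in both. F630028O10Rik, the host of the myeloid miR-223, had 12.7 and 9.28 against 12 and 5.87 (-0.24). Lncppara, the let-7 host, had 15.5 and 8.44 against 9.25 and 9.78 (-0.24). Their groups overlapped. Mir99ahg and Mir1a-1hg, named for other microRNAs, were also uncalled (0.20 and 0.12).

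Of the 4 RNAs known from growth and stress, 3 were tested and 0 were called by edgeR or DESeq2, with 0 at an unadjusted p below 0.05. Norad, an abundant cytoplasmic RNA that binds Pumilio proteins, had 343 and 486 normalised counts in the controls and 414 and 419 after LPS. Its log2 fold change of -0.00 had the smallest standard error of the tested members, 0.204. Pvt1, the neighbour of Myc, had 15.5 and 35.4 against 23.1 and 42.1 (0.27, SE 0.420). Tug1, with 1.41 and 11 against 8.32 and 9.78, was not tested.

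Several of the most counted members bear only catalogue names. AI662270, which lies near the Slfn genes on chromosome 11 (chr11:83223576-83226584), had 353 and 514 normalised counts in the controls and 437 and 540 after LPS (0.17, SE 0.218). Per kilobase it averaged 304 and 342, the same order as Malat1. Gm16702 had 264 and 156 against 320 and 163, with replicate 1 above replicate 2 in both groups. Gm12070, a transcribed pseudogene, had 138 and 96.2 against 129 and 137 (0.20). Vaultrc5, a vault RNA, had 165 and 147 against 153 and 122 (-0.17).

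The 5 opposite-strand RNAs were tested and 0 were called by edgeR or DESeq2, with 0 at an unadjusted p below 0.05. Rab26os, against the Rab26 GTPase gene, had 56.3 and 43.0 normalised counts in the controls and 59.2 and 58.7 with LPS (0.27), and Rab10os had 38.0 and 21.1 against 41.6 and 33.3 (0.40). Scpep1os had 30.9 and 11 against 26.8 and 10.8, with replicate 1 above replicate 2 in both groups. Hectd2os, which entered through the controls alone, had 18.3 and 9.28 against 3.70 and 7.82 (-1.16, adjusted p = 0.388). In the pseudogene class 8 of 9 were tested, 0 were called by either tool and 1 (Pisd-ps1) had an unadjusted p below 0.05. Log2 fold changes ran from -0.67 (Pisd-ps1) to 0.84 (Morf4l1-ps1, 12.7 and 11 against 15.7 and 26.4). Vmn2r-ps129, counted with the catalogue-named RNAs, had 21.1 and 15.2 against 19.4 and 12.7 (-0.13). The 76 members of the catalogue-named class included 74 tested ones, of which 39 were above 0 and 13 had an unadjusted p below 0.05. Over all 6981 tested records 3375 were above 0 and 1076 (15.4%) had an unadjusted p below 0.05.

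**Figure D5:**
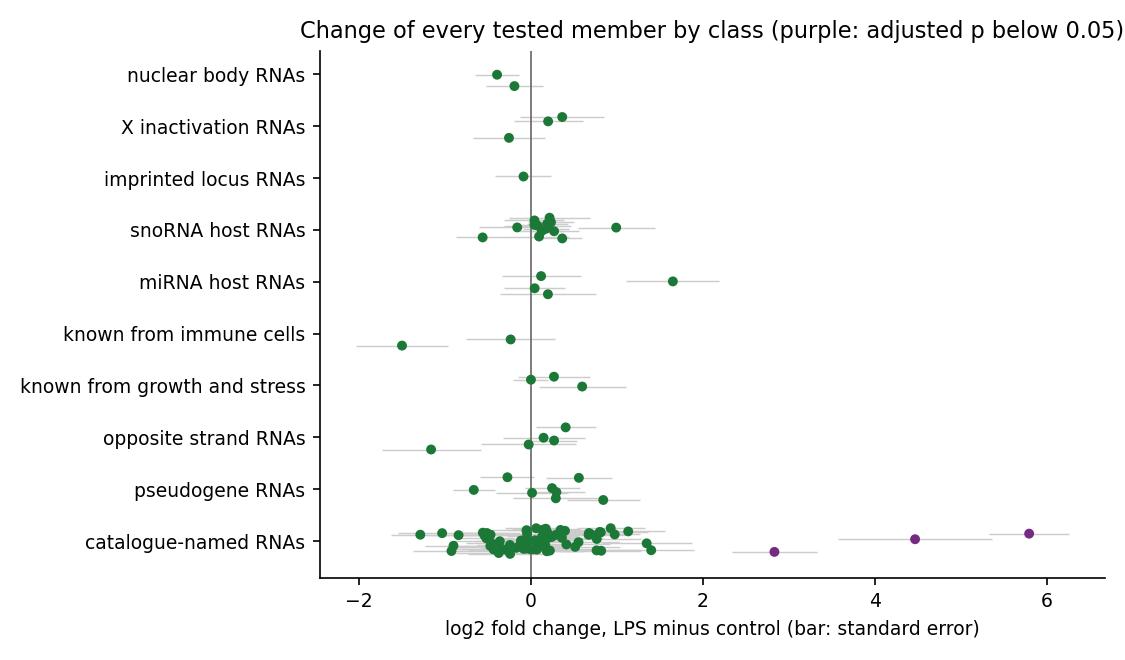
Log2 fold change, LPS minus control, of every tested member by class, with the standard error as a bar; purple points are the 3 called members. The called members all fall in the catalogue-named class, and the named classes lie between -1.50 (Dnmt3aos) and 1.65 (Mir22hg).

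The members share features of position that the rule did not use. The median matched transcript was 1810 bases over the 112 members with a match (98 by RefSeq identifier and 14 by symbol), against 2870 for all tested records, and 26 of the 112 had a single exon. Chromosome 11 held 18 members, or 15%, against 8.39% of tested records, a difference given without a test. A coding gene's span overlapped 52 members, on the opposite strand in 39 and the same strand in 12, and coding exons overlapped in 33. For these, assignment of reads depends on the strand setting of the counting. For 4 members a coding gene that overlapped or stood next to them was called higher: Il1a and Il1b at Gm14023, Ier3 at 4833427F10Rik, Herpud1 37750 bases from 9330175E14Rik, and Ccdc71l 441173 bases from Gdap10. None had such a neighbour called lower. Over all tested records 3.82% were called higher and 1.7% lower, and nothing about position is read from these neighbours. As a measure of the stimulus in the same fit, Il1b, Acod1 and Nfkbia had log2 fold changes of 8.88, 7.35 and 2.72 and all were called higher.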

How the data were processed

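RNA from 2 control and 2 LPS libraries of BV-2 cells was sequenced as paired ends after removal of ribosomal RNA, with a directional kit, per the labels' protocols. The table the authors deposited gives a count per RefSeq record. Its name calls the values normalised, but they are whole numbers with different totals per library and were treated as raw counts. The submitters' processing notes list HTSeq 0.6.1, TopHat2 2.0.10, Trimmomatic 0.33, Cufflinks 2.2.1 and CASAVA 1.8.2 with the build mm10, without settings. Symbols and positions came from RefSeq tables of GRCm38.p6, strands, exons, GC and length from GENCODE M21.

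The whole table was fitted with edgeR 4.0.16 in R 4.3.3 (filterByExpr, minimum count 10, TMM, quasi-likelihood test, Benjamini-Hochberg adjustment over the 6981 records tested, threshold 0.05). The standard error is the absolute log2 fold change over the square root of F. Library totals of 2778686 to 3368693 counts and a biological coefficient of variation of 15.8% set the precision. The exact intervals come from the pooled counts of each group without variation between libraries, so they cover counting error only. Reads carry no molecular identifiers. Fits were tested on data simulated with a common dispersion and without a GC trend, so the gap between the controls was not covered. Alternatives were other scalings, filters, DESeq2 1.42.0, records summed by gene, each library left out, a replicate block and a GC and length correction (mgcv 1.9.3).

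Named were the called members with their neighbours (1 neighbour is not reported here), the 10 most abundant, members of the named classes and 3 LPS genes; Rnf227, AI839979, C920009B18Rik, 4833427F10Rik, Pisd-ps1, 2610507I01Rik, Zxda, A330023F24Rik, Lncppara and the members at the count limit were added after their values were seen. The members, classes and lists were chosen with earlier results of these data known.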

Additional observations from a re-analysis of the deposited data

How the results depend on the processing

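The 3 calls held their direction in all alternatives that tested them, and 6530402F18Rik and A430093F15Rik were called in each of these. None of the 3 was tested under a minimum mean of 50 normalised counts, and Gm14023 was not tested without LPS replicate 2 and had no adjusted p in DESeq2. With each library left out in turn, their log2 fold changes ranged from 5.02 to 6.65, from 2.75 to 2.99 and from 3.92 to 6.76. How many other members were called depended on the settings; the cause was not tested. Members called higher and lower are given with the calls over all records tested, which were 267 and 119 of 6981 in the main fit. Without a filter 5 and 1 of 120 members were called, and 209 of 13081 records were called lower. At a mean of at least 50 they were 0 and 0 of 24 members, beside 164 and 54 of 4117 records. With the replicate block they were 6 and 2 of 116 members, beside 401 and 288 of 6981 records. With the GC and length trend removed they were 6 and 3 members, beside 481 and 291 records. With both they were 7 and 7 members, beside 614 and 460 records. AI839979 and C920009B18Rik (higher) and Pisd-ps1 and Rnf227 (lower) were new with the block and with the trend removed, Mir22hg (higher) with the block, and Zxda (higher) and Malat1 (lower) with the trend removed. Leaving out libraries gave 2 to 9 higher and 0 to 5 lower, with 8 and 5 without control replicate 1 and 9 and 2 without control replicate 2. The new calls without control replicate 1 were 4833427F10Rik, AI839979, C920009B18Rik, Gm16702 and Mir22hg (higher) and E330020D12Rik, Kcnq1ot1, Malat1, Pisd-ps1 and Rnf227 (lower). Those without control replicate 2 were 4930470H14Rik, AI662270, Gdap10, Kcnq1ot1, Snhg1 and Xist (higher) and Pisd-ps1 and Rnf227 (lower). Kcnq1ot1 turned from -0.09 to 0.59 without control replicate 2 and was -0.51 without control replicate 1. The members' median log2 fold change ran from 0.028 to 0.206 over these fits, the latter without control replicate 2. Over all records, higher and lower calls (267 and 119) were 209 lower without a filter, 164 and 54 at the higher mean, 66 lower by DESeq2, 401 and 288 with the block, 481 and 291 with the GC trend removed, 614 and 460 with both, and 165 to 723 and 39 to 581 with a library left out. Of all records called, 69.2% were called higher in the main design, 58.2% with the block and 57.2% with both. The shares were 63.6% without a filter, 75.4% by DESeq2 and 75.2% at the higher mean. A library left alone in its group was assumed to vary like the other group. Whether same-numbered libraries of the 2 groups belong together is not known here. Their deviations from the group means correlated at 0.231 over the tested records. With 2 libraries a group, both replicate numbers give the same correlation by construction, so it does not settle pairing. Low counts limit what could be resolved: the members' median standard error was 0.412, against 0.272 over all tested records.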
